A study of Macaca mulatta with 26 samples.

Results

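A stretch of rhesus chromosome 5 gave rise to a nested set of exonic circRNAs in muscle, and one of them, mmu_circ_014509, was listed with 3 different exon structures. The locus comprised all entries on the plus strand of chromosome 5 that overlapped chr5:140155343-140181652 (rheMac2), together with all entries assigned to the transcript ENSMMUT00000020968. This rule found 118 of 64900 entries, which fell on 25 of 27419 back-splice junctions and described 36 of 29112 exon structures. Of the 25 junctions, 19 overlapped the interval and 6 lay upstream of it and were found by the transcript name alone.

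Muscle of the vastus lateralis was sequenced as 1 library per monkey from 6 young animals (0.003 to 6 years), 11 middle-aged animals (11.3 to 16.93 years) and 7 old animals (25.7 to 40.9 years), at approximately 20000000 reads each. All monkeys ate a normal diet without restriction. A further library from each of the ages 0.005 and 40.1 years, taken here as the in-depth libraries from the form of their titles, was sequenced at approximately 100000000 reads. Young replicate 1 and old replicate 2 have the same ages, and the labels do not say whether they came from the same monkeys. Replicates are numbered here in the order of the deposited samples, and the number pairs nothing between groups. The libraries held 822 to 11561 junction reads (median 3924), and the in-depth libraries 60704 and 35205. The tissue label was not checked against marker genes, since the files name host transcripts and not genes.

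A circRNA forms when the splice donor at the end of an exon is joined backward to a splice acceptor that lies before it, in that exon or an earlier one. When several donors and acceptors of one gene take part, a family of circRNAs that share exons can arise from a single locus. RNase R, an exonuclease that degrades linear RNA, was used on every sample, so that reads across a back-splice junction report circles that resisted it. Such a read shows which exon ends are joined, and the exons inside the circle are those of the transcript to which the junction was assigned.

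The 25 junctions held 962 reads over the 26 libraries, of which 479 were in the 24 libraries of the age groups. They spanned 193381 nt, from 140066045 to 140259425, and were listed with 23 distinct exon forms, where an exon listed with different ends counts more than once. All were exonic, and no entry lay on the opposite strand. Reads found by the rule were concentrated on few junctions. The 9 junctions with at least 10 reads held 909 of the 962 reads and the other 16 held 1 to 9 reads each. Under any transcript name the 25 junctions had 1119 reads. Of the other 16, those from 140077381 and 140098038 to 140100769 then had 29 and 24 reads, and that from 140123332 to 140129905 had 12.

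**Figure D1:**
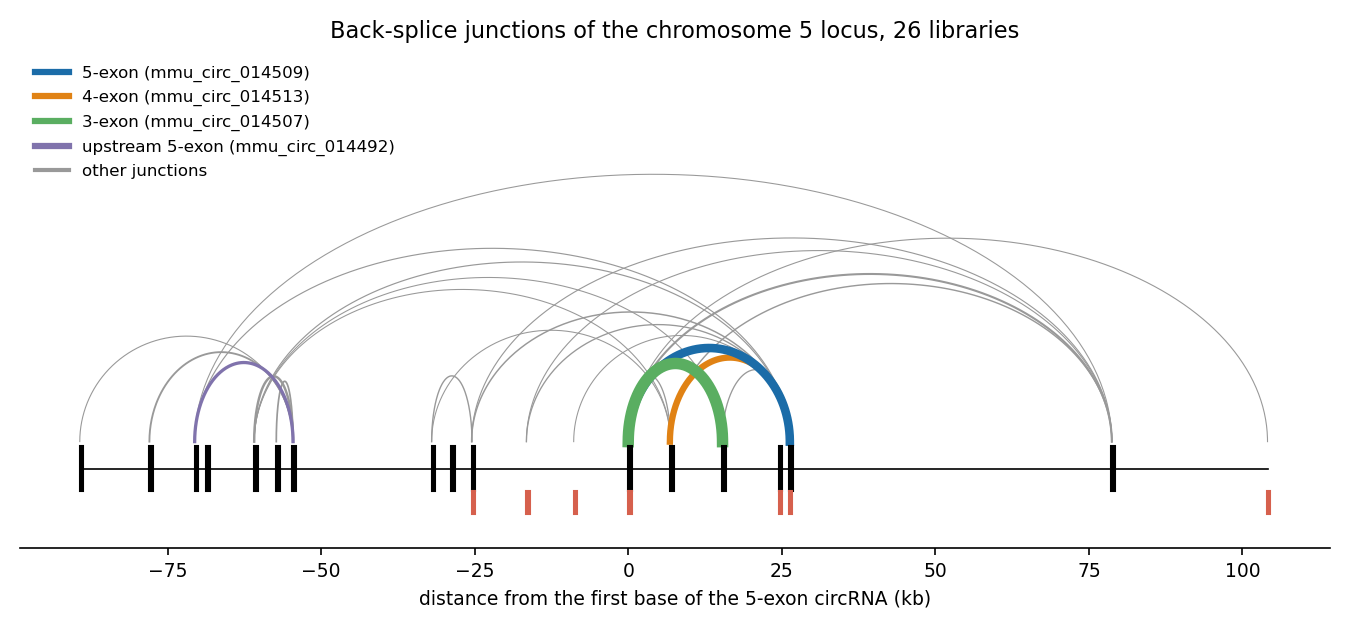
Back-splice junctions of the locus along the distance in kb from the first base of the 5-exon circRNA. Arcs join the ends of each of the 25 junctions, with a width that grows with the reads over 26 libraries under any transcript name and a height that grows with span. Black boxes are exons of entries named for ENSMMUT00000020968 and red boxes below the line are exons or exon ends seen under other names; exons are drawn at least 0.6 kb wide. The 3-exon, 5-exon and 4-exon circles stand out with 364, 263 and 185 reads.

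Most reads of the locus fell on few acceptors and donors. The acceptor at 140155343 began 5 junctions with 70.1% of the reads, and the acceptor at 140162123, one exon downstream, began 20.6%. Among donors, 140181652 ended 8 junctions with 51.1% of the reads, 140170694 ended 37.9%, 140234072 ended 5.72% and 140100769 ended 3.33%. These shares are of the 962 reads found by the rule, which takes the upstream junctions only from libraries that used the transcript name. They therefore understate the upstream sites and overstate the others. The largest junction of 140100769 had 13 reads by the rule and 78 under any transcript name, beside 55 for the whole donor 140234072. The 3 circles built from the acceptors 140155343 and 140162123 and the donors 140181652 and 140170694 made up most of the reads. They had 364, 263 and 185 reads for those of 3, 5 and 4 exons. The 5-exon circle is mmu_circ_014509 (140155343 to 140181652). The 4-exon circle, mmu_circ_014513 (140162123 to 140181652), lacks the first exon of the former. The 3-exon circle, mmu_circ_014507 (140155343 to 140170694), lacks its last exons.

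mmu_circ_014509 had 263 reads in 23 of the 26 libraries. Its main structure joined exons of 75, 88, 59, 106 and 160 nt into a circle of 488 nt and held 232 reads in 19 libraries. The second structure, of 444 nt, had a first exon of 35 nt, which ended 40 nt earlier, and an exon of 102 nt in place of the 106-nt exon, which started 4 nt later. It held 26 reads and was listed in young replicate 1, middle-aged replicate 7 and old replicate 4. The remaining structure, of 448 nt, combined the 35-nt exon with the 106-nt exon and held 5 reads in middle-aged replicate 8. The structures therefore differed between libraries, and 0 libraries listed more than 1 structure for this junction. The same held for the other junctions of the locus with at least 10 reads, so it is no trait of this junction. At 0.005 years, young replicate 1 listed the 444-nt form (10 reads) and the in-depth library the 488-nt form (79 reads). Since exons inside a circle were assigned from the transcripts assembled in each library, whether the circles themselves differed was not tested.

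The same exon forms appeared in the neighboring circles. The 4-exon circle was listed with 413 nt (167 reads in 21 libraries) or, with the 102-nt exon, with 409 nt (18 reads in 3 libraries). These 3 libraries were those with the 444-nt form of mmu_circ_014509. In each of them both circles were assigned to the same assembled transcript, so the match follows from the assignment and is no independent observation. Middle-aged replicate 7 also listed 1 read of the junction from 140162123 to 140234072 with the 106-nt exon, under another assembled transcript. The 3-exon circle had 222 nt (340 reads in 8 libraries) or, with the 35-nt exon, 182 nt (24 reads in young replicate 1 and middle-aged replicate 8). The 5 other circRNAs that the study selected for RT-qPCR in all age groups, mmu_circ_017332, mmu_circ_014269, mmu_circ_015060, mmu_circ_006895 and mmu_circ_004374, were each listed with 1 structure. They held fewer reads, 88 to 168 beside 263, and so had fewer chances to be listed with another structure. mmu_circ_004374 was listed as 1 exon, which has no inner exon ends that could differ, and mmu_circ_015060 as 2 exons. Over the whole series, 30 of 270 junctions with at least 100 reads (11.1%) had 3 or more structures, and the highest number was 10. mmu_circ_014509 also shared a splice site with more reads of other junctions than those 5 did. It shared an end with 11 other junctions that held 640 reads, and its own reads were 29.1% of the total, whereas this share ranged from 66.5% to 100% for the other 5.

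Long introns were listed on both sides of mmu_circ_014509. The intron upstream of mmu_circ_014509 was listed with 25437 nt and the one downstream with 52269 nt in all 21 of the 24 libraries that held the junction, which exceeded the upstream intron of 86.9% and the downstream intron of 96.7% of the 24360 junctions with listed introns. The medians over those junctions were 5174 nt and 4537 nt. By the listing with the most reads, the 4-exon circle shared the downstream intron but had an upstream intron of 6705 nt. That exceeded the upstream intron of 57.7% of those junctions. The 3-exon circle shared the upstream intron in the same way but had a downstream intron of 9131 nt, which exceeded the downstream intron of 71.4%. Introns, like exons, follow the assembly of a library. The in-depth library aged 0.005 years listed 16486 nt upstream of mmu_circ_014509 and that aged 40.1 years listed 25400 nt upstream and 6790 nt downstream.

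**Figure D2:**
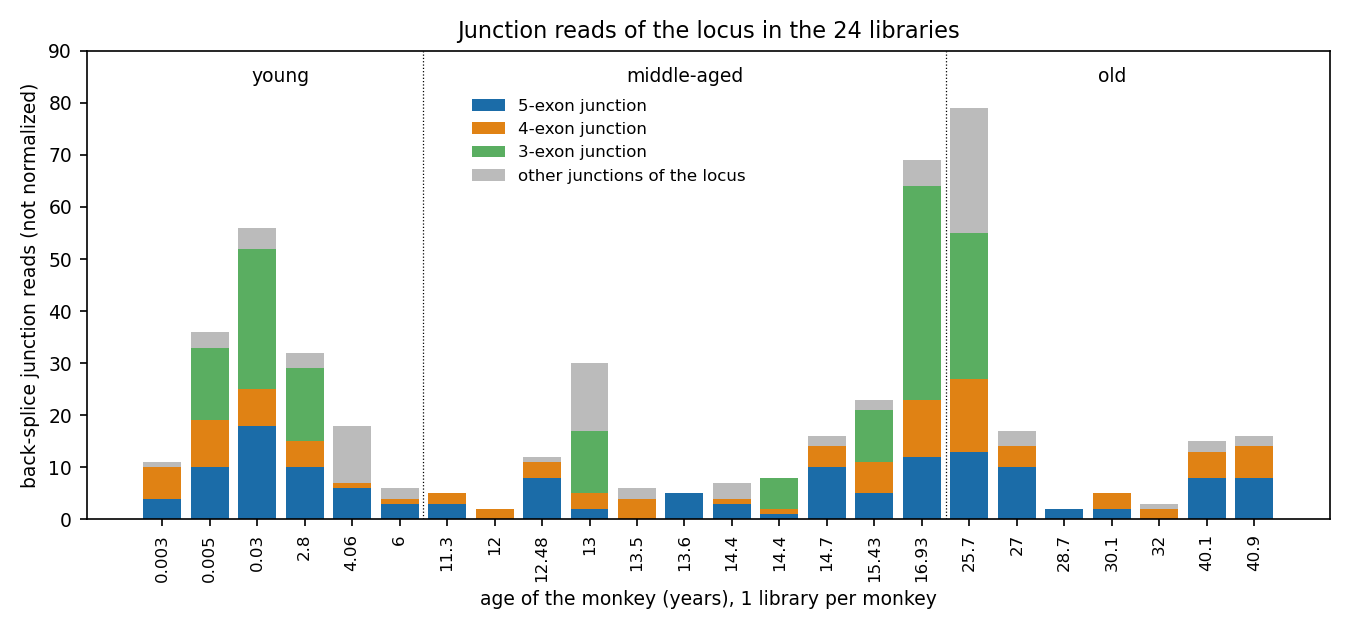
Junction reads of the locus in the 24 libraries, not normalized, stacked by junction and ordered by age group and age. Bars show the 5-exon (blue), 4-exon (orange), 3-exon (green) and other (grey) junctions; the 3-exon junction is present in 8 libraries, with 6 to 41 reads, and at 0 in 16.

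The 5-exon and 4-exon junctions were spread over most monkeys. The young libraries held 3, 8 and 18 reads of mmu_circ_014509 (lowest, median and highest), the middle-aged libraries 0, 3 and 12, and the old libraries 0, 8 and 13. It was found in 6 of 6 young, 9 of 11 middle-aged and 6 of 7 old libraries. The 4-exon junction had 1, 5.5 and 9 reads in the young libraries, 0, 3 and 11 in the middle-aged libraries, and 0, 4 and 14 in the old libraries. It was found in 22 of the 24 libraries, and the groups overlapped for both junctions.

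The 3-exon junction followed another pattern. Its 152 reads came from 8 of the 24 libraries, with 0 reads in the other 16. In the young group it had 14, 27 and 14 reads in the monkeys aged 0.005, 0.03 and 2.8 years. In the middle-aged group it had 12, 10 and 41 reads in the monkeys aged 13, 15.43 and 16.93 years, and 6 reads in replicate 10, aged 14.4 years. In the old group it had 28 reads in the monkey aged 25.7 years. The junction was thus either the most abundant of the 3 circles or not listed. In all 8 libraries its reads exceeded those of the 5-exon junction, from 14 against 10 in young replicate 1 to 41 against 12 in middle-aged replicate 6, while 7 of the 16 libraries without it held at least 5 reads of the 5-exon junction and up to 10.

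Depth went with this pattern only in part. When the libraries were ordered by junction reads, the 3-exon junction was present in 7 of the 12 with the most (4298 to 11561 reads) and in 1 of the 12 with the fewest (822 to 3550 reads). The 1 was middle-aged replicate 10, which had the fewest junction reads of all (822) and the highest share of the 3-exon junction, 7.30 per 1000. Among the 12 with the most, those without the 3-exon junction held 4755 to 5977 junction reads. The 5-exon junction was present in 11 of the 12 with the most and 10 of the 12 with the fewest. The part of depth in the absence of the 3-exon junction was not tested, and whether it had no read or was not called in a library cannot be told apart. Among the 119 junctions with at least 100 reads in the 24 libraries, the median number of libraries with reads was 21, and 17 junctions had reads in at most 16. Only 4 of these 17, mmu_circ_014507 included, had no library with 1 to 5 reads, by limits chosen after the values were seen. Of these 4, mmu_circ_014507 was in the fewest libraries.

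**Figure D3:**
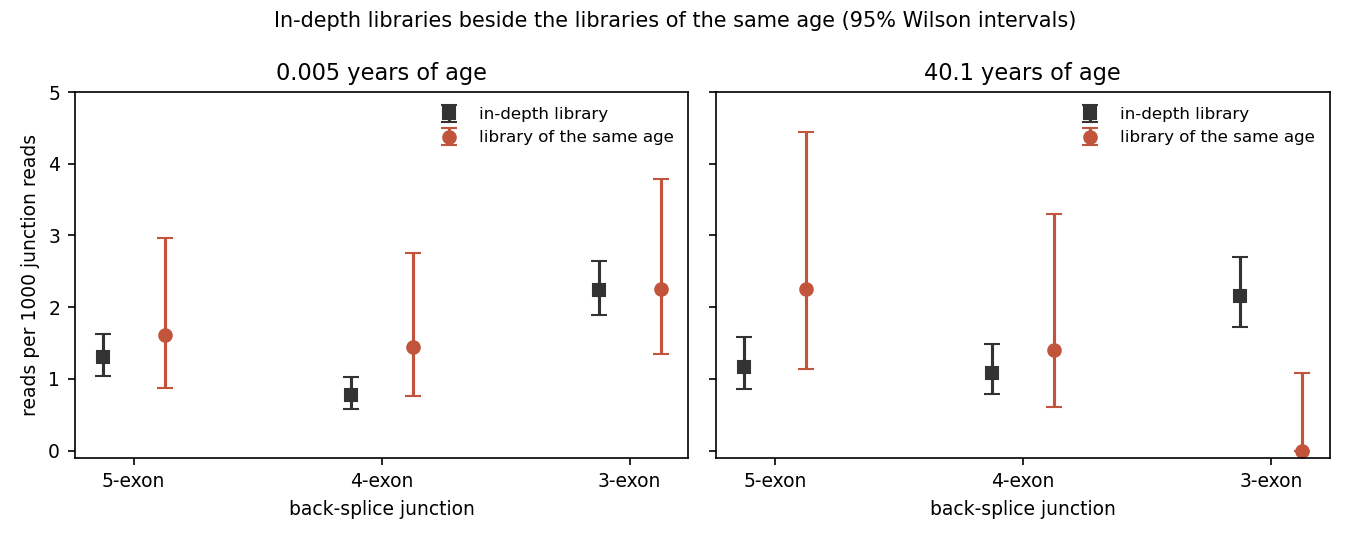
Reads per 1000 junction reads with 95% Wilson intervals for the 5-exon, 4-exon and 3-exon junctions, in the in-depth libraries (squares) and the libraries of the same age (circles). At 40.1 years the 3-exon junction stood at 2.16 in the in-depth library and at 0 in the other.

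The in-depth libraries gave the composition of the locus with less counting error. In the in-depth library aged 0.005 years the 3-exon, 5-exon and 4-exon junctions had 136, 79 and 47 reads. In that aged 40.1 years they had 76, 41 and 38 reads. The order of the 3 circles was thus the same at both ages, and the 3-exon junction held 63.3% (95% Wilson interval 56.6 to 69.4) and 65.0% (56.0 to 73.0) of the reads of the 3-exon and 5-exon junctions. There was 1 in-depth library per age, so no test was made, and the intervals cover counting error only.

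At 0.005 years the intervals of the 3-exon junction overlapped, 2.24 per 1000 junction reads (1.89 to 2.65) in depth and 2.26 (1.34 to 3.79) in young replicate 1. At 40.1 years they did not. The in-depth library had 2.16 per 1000 (1.73 to 2.70), whereas old replicate 2 had 0 of 3550 junction reads (0 to 1.08 by the same interval, with 3 reads at 0.845 per 1000). The 5-exon junction in these libraries had 1.16 (0.859 to 1.58) and 2.25 (1.14 to 4.44) per 1000. The 3-exon junction was therefore listed in one library of this age and not in the other, and depth and animal cannot be told apart here. Of the 25 junctions, 4 were found in the in-depth libraries alone, with 8 reads in total.

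To ask whether the locus changed with age, its reads were set against all junction reads of a library. The locus held 5.56 ± 2.31 reads per 1000 junction reads in young monkeys (SD, n = 6), 4.32 ± 2.28 in middle-aged monkeys (n = 11) and 3.73 ± 2.97 in old monkeys (n = 7). The difference between old and young was -1.83 per 1000 (exact permutation test, two-sided, p = 0.245), that between middle-aged and young -1.24 (exact permutation p = 0.303), and that between old and middle-aged -0.59 (exact permutation p = 0.643). Adjusted over the 3 comparisons, the permutation p-values were 0.455, 0.455 and 0.643. No difference exceeded the spread between monkeys. The upstream junctions count here only in the 7 of 24 libraries that used the transcript name, and in the old group only in the library aged 25.7 years, which stood at 9.70 per 1000. Without that library the old group differed from the young by -2.83 (exact permutation test, adjusted p = 0.0909, the lowest for this comparison over all settings run). With entries that overlap the interval alone, the 3 differences were -1.29, -0.662 and -0.623, and with the same junctions under any transcript name they were -1.51, -1.22 and -0.29, alternatives added after the data were seen (exact permutation tests, adjusted p from 0.479 to 0.819). These are bulk samples, in which fewer cells of a type and less circRNA per cell cannot be told apart.

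**Figure D4:**
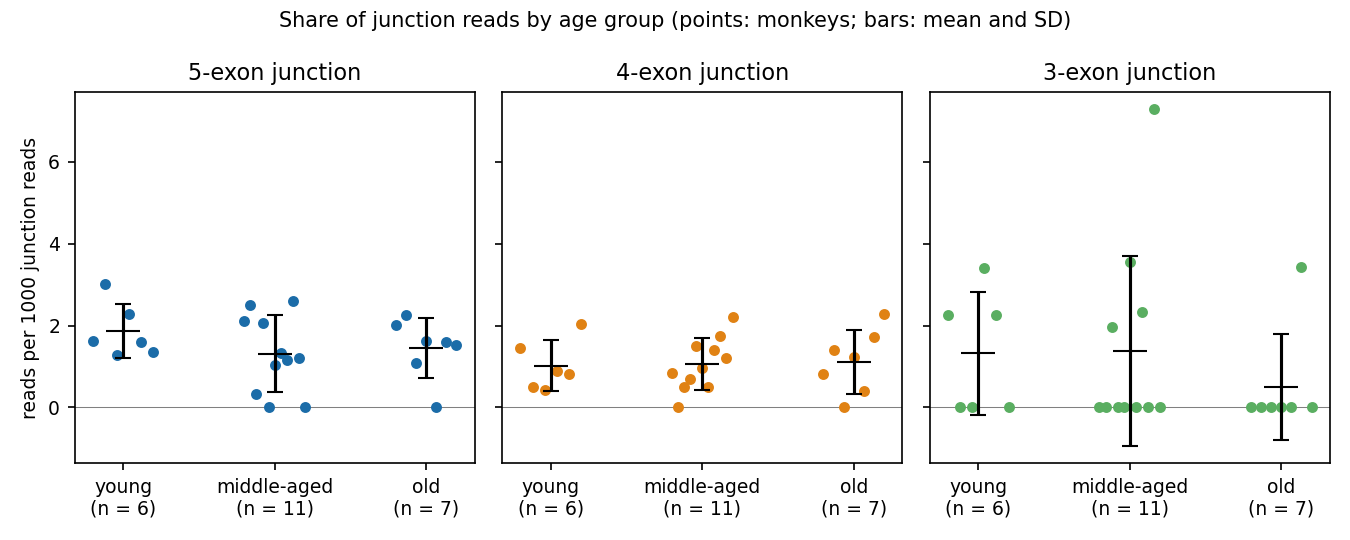
Reads per 1000 junction reads of the 5-exon, 4-exon and 3-exon junctions by age group. Points are monkeys, and black bars are the mean and SD; the groups overlap for each junction, and many points of the 3-exon junction lie at 0.

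mmu_circ_014509 held 1.86 ± 0.661 reads per 1000 in young monkeys (SD, n = 6), 1.31 ± 0.941 in middle-aged monkeys (n = 11) and 1.44 ± 0.737 in old monkeys (n = 7). In the edgeR quasi-likelihood fit over 258 junctions, its log2 fold change was -0.34 between old and young (SE 0.58, adjusted p = 0.953). It was -0.54 between middle-aged and young (SE 0.55, edgeR adjusted p = 0.916) and 0.19 between old and middle-aged (SE 0.54, edgeR adjusted p = 0.928). The 95% interval of the first, -1.49 to 0.80, left room for changes in either direction. Over 9 alternative settings its log2 fold changes ranged from -0.67 to -0.31, from -1.25 to -0.52 and from 0.17 to 0.58 in the same order, with the outer value of each from the authors' factors, and none was called. The 4-exon junction averaged 1.02, 1.05 and 1.12 per 1000 in young, middle-aged and old monkeys, and its log2 fold changes were 0.074, -0.15 and 0.23, in the order above (edgeR adjusted p = 0.977, 0.983 and 0.928). Over the same settings these ranged from -0.16 to 0.78, from -0.74 to 0.55 and from 0.046 to 0.58, also without a call.

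The fit called 0 of these junctions of the locus, beside 0%, 0% and 0.388% of the 258 junctions tested in the 3 comparisons (old against young, middle-aged against young, old against middle-aged). edgeR gave an unadjusted p below 0.05 to 14, 19 and 18 of the 258, and DESeq2 called 0, 1 and 1. Of the 25 junctions of the locus, the 5-exon and 4-exon junctions passed the filter, which required 2 or more reads in 12 or more libraries. The 3-exon junction did not pass it despite its 152 reads. It averaged 1.32 ± 1.51 per 1000 in young, 1.38 ± 2.33 in middle-aged and 0.491 ± 1.30 in old monkeys. None of the 3 pairs of groups differed in an exact permutation test added after the data were seen (adjusted p = 0.619, 0.952 and 0.619).

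The balance within the locus was compared as well. Among libraries with at least 5 locus reads, mmu_circ_014509 held 35.1% ± 7.80 of the locus reads in young monkeys (SD, n = 6), 39.0% ± 32.5 in middle-aged monkeys (n = 10) and 43.7% ± 16.7 in old monkeys (n = 5). The middle-aged libraries ranged from 0% in replicate 5 to 100% in replicate 2. The 3 differences, 8.58, 3.89 and 4.69 percentage points, had adjusted p = 0.786 each (exact permutation test, two-sided). The share depends on which other junctions a library listed. It was 6.67% to 32.1% where the 3-exon junction was listed and, apart from middle-aged replicate 5, 33.3% to 100% where it was not. Upstream junctions entered the locus reads only in libraries that used the transcript name. Without old replicate 6, old and young differed by 15.4 points (exact permutation test, adjusted p = 0.0714). mmu_circ_014509 and the 4-exon junction had a Spearman correlation over the 24 libraries of -0.030, beside a median of -0.028 over 256 junctions. The 3 highest of the 256 correlations with mmu_circ_014509 were those of mmu_circ_015451 (0.64), mmu_circ_013004 (0.62) and mmu_circ_001371 (0.57). They were picked by rank over 24 libraries of unequal depth and are given as a description, without a test.

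Longer circles extended the same sites. The donor at 140234072 closed a 6-exon circle that began at 140155343, of 639 nt in its main structure, with 36 reads. It had 7 reads in 4 of 6 young libraries, 0 in the middle-aged libraries and 8 in 2 of 7 old libraries, 6 of them in one library, and 13 and 8 in the in-depth libraries. The junction from 140162123 to the same donor had 13 reads, with 0 in the young libraries, 5 in the middle-aged, 3 in the old, and 2 and 3 in the in-depth libraries aged 0.005 and 40.1 years. Acceptors upstream of 140155343 joined the donor 140181652 in circles that contained the 5 exons of mmu_circ_014509, except for 1 read in young replicate 2 that was listed with a last exon of 185 nt in place of 160 nt. The junction from 140129840 had 15 reads with 3 structures and that from 140138765 had 10 reads, 9 of them in the in-depth library aged 0.005 years. None of these junctions passed the filter of the fit over ages. In the alternative fit over 1552 junctions with at least 10 reads in total, the 6-exon junction had an edgeR adjusted p of 0.0512 for middle-aged against young, 0.0572 for old against middle-aged and 1 for old against young, and the other longer circles were not tested.

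Upstream, 5 junctions shared the donor 140100769. The largest, mmu_circ_014492 (140084751 to 140100769, 5 exons, 548 nt), had 13 reads under ENSMMUT00000020968 and 78 under any transcript name, in 20 libraries. The junction from 140094440 had 10 and 49 reads. The transcript name ENSMMUT00000020968 was used in 8 of the 26 libraries, and other entries carried names from the assembly of each library, so the name undercounts these junctions. Under any name, mmu_circ_014492 held 0.790 ± 0.909 reads per 1000 in young monkeys (SD, n = 6), 0.389 ± 0.410 in middle-aged monkeys (n = 11) and 0.537 ± 0.283 in old monkeys (n = 7), with overlapping groups. It was found in 5 of 6 young, 6 of 11 middle-aged and all 7 old libraries, with a median of 1.5, 1 and 1 reads. In the mean of each group it was lower than the 5-exon circle.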

How the data were processed

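Total RNA was digested with RNase R and sequenced without poly(A) selection. The authors aligned reads to rheMac2 with TopHat2 2.0.14 and Bowtie2 2.2.4, assembled transcripts with Cufflinks 2.2.1 and called circRNAs with CIRCexplorer. They deposited raw counts of reads across each back-splice, per library, and circRNAs absent from a library were counted as 0. The members, lists and tests were chosen with earlier results of these data known. Junctions and structures with at least 10 reads were named by rule. Coordinates are counted from 1.

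Reads were summed over exon structures per junction. Age groups were compared by the quasi-likelihood test of edgeR 4.0.16 (R 4.3.3) over the 258 junctions that had 2 or more reads in 12 or more of the 24 libraries (total junction reads as library size, 3 groups in 1 fit, no covariates, Benjamini-Hochberg adjustment at 0.05). Single values were compared by two-sided exact permutation tests (scipy 1.17.1, numpy 2.4.6, pandas 2.3.3, Python 3.11.15; figures by matplotlib 3.10.9). Alternatives were TMM, the authors' factors (solved from 203 averages, largest residual 4.03e-05), DESeq2 1.42.0, separate structures, other read minimums, other members and libraries left out. In simulated counts for old against young over 258 junctions, edgeR recovered 0, 16 and 30 of 40 junctions changed by 1, 2 and 3 on the log2 scale, with 0, 0 and 1 false calls. The simulation gave all junctions 1 common dispersion (0.371) and, apart from the change, the same expected share in every library. Spread that differs between junctions was not simulated, so these counts may not hold for the real data. At 3 reads, the libraries could show 0.259 to 3.65 per 1000 junction reads. Linear transcripts, RT-qPCR values, gene names and sequences were not analysed here.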

Additional observations from a re-analysis of the deposited data

Results flagged for a closer look

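In 23 groups of 5 to 10 libraries tested, 6 had a highest library far from the next one by Dixon's limit at 95%, and chance flags about 1 in 20 groups. That rate is for normally distributed values and is no measure for sparse counts: in 3 of the 6, a single library held reads, which meets the limit at any count. Values are reads per 1000 junction reads. In the old group, the monkey aged 25.7 years (replicate 6) stood at 9.70 for the whole locus, where the next library had 4.23. It is also the 1 old library of the 24 that used the transcript name by which upstream junctions were counted. Under any transcript name the next library had 5.63, and the gap was 0.501 of the range, below the limit. The same library stood at 3.44 for the 3-exon junction, where the other 6 old libraries had 0. The other 4 flags concern junctions with few reads. For the junction from 140129840 to 140181652, young replicate 6 stood at 0.341 and old replicate 5 at 0.198, each from 1 read. For that from 140138765 to 140181652, young replicate 2 stood at 0.501, also from 1 read. For that from 140162123 to 140234072, old replicate 4 stood at 0.406 from 2 reads.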

How the results depend on the processing

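The age differences of the locus share kept their direction, without a call, between old and young and between middle-aged and young under all 8 alternatives, with -0.48 and -0.458 for entries named for the transcript alone and -1.01 between old and young without the 3-exon junction. Between old and middle-aged the difference, -0.59 per 1000, became 3.20 with the authors' factors (normalized reads), 0.475 without the 6 libraries with the fewest junction reads and 0.294 without the 3-exon junction (added after the data were seen). The share of mmu_circ_014509 in the locus differed between old and middle-aged by -2.60 percentage points at a minimum of 3 locus reads. Over the 5-exon and 4-exon junctions alone (added later), the differences were -7.75 for old against young, -0.29 for middle-aged against young and -7.46 for old against middle-aged. The log2 fold change of the 4-exon junction became -0.16 between old and young with the authors' factors, and 0.21 with separate structures and 0.55 without monkeys under 1 year between middle-aged and young. The cause was not tested. The authors' factors moved the median log2 fold change of all junctions to -0.36, -0.49 and 0.16.

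Junctions called over the series rose with at least 10 reads in total, where 1552 junctions were tested, to 17 (old against young), 24 (middle-aged against young) and 25 (old against middle-aged). Between middle-aged and young there were 1 by DESeq2, 3 with at least 1 read in 12 libraries, 2 with only the groups compared and 2 without the 6 libraries. Between old and middle-aged there were 0 with TMM, 0 with the authors' factors and 0 without the 6 libraries. The 5-exon and 4-exon junctions were called under no alternative run.

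Without each library in turn, the locus difference ranged from -2.83 (without old replicate 6) to -1.14 (without young replicate 2) between old and young, from -1.84 to -0.552 between middle-aged and young, and from -1.59 to -0.0487 between old and middle-aged. The share of mmu_circ_014509 ranged from 4.80 to 15.4 (without old replicate 6), from -2.89 (without middle-aged replicate 2) to 8.22, and from 0.354 to 11.5 points, in that order. The 3-exon junction ranged from -1.32 to -0.41, from -0.536 to 0.474 and from -1.38 to -0.292 per 1000. The log2 fold change of mmu_circ_014509 ranged from -0.48 to -0.099, from -0.67 to -0.39 and from 0.049 to 0.44, and that of the 4-exon junction from -0.13 to 0.31, from -0.27 to 0.083 and from 0.026 to 0.39. Calls ranged from 0 to 0, from 0 to 2 and from 0 (without middle-aged 1 or 2 or old 1, 3 or 5) to 4 (without old 2). No paired analysis was possible because replicate numbers follow the order of deposit and pair no monkeys.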
